A study of Mus musculus with 9 samples.

Results

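Bhlhe22 and Dach1 are genes of transcriptional regulators taken by name from the union of 3 deposited tables of changed genes, 2 genes of 8742. They were chosen by the fold changes in the authors' tables, which list both as lower than wild type in one edited group and higher than wild type in the other, so their directions in these comparisons are the reason for the choice and are described here without a test. The RNA came from organoids of mouse esophageal epithelial cells, cultures in which cells grow into small self-organised bodies, harvested 7 days after seeding with no treatment. WT organoids (3 libraries) were wild type, PN organoids (3 libraries) carried the label of a Trp53 and Notch1 double knockout, and PCN organoids (3 libraries) that of a knockout of Trp53, Cdkn2a and Notch1. Both edited groups therefore share the labelled loss of Trp53 and Notch1 and differ by Cdkn2a. The labels name neither the editing method, nor the age of the mice, nor whether a group is a single clone or a pool.

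Bhlhe22 encodes a basic helix-loop-helix (bHLH) factor of the OLIG group, which binds E-box DNA as a dimer and acts mainly as a repressor. It is known from neurons of the retina, spinal cord and cortex. Dach1 encodes a nuclear cofactor related to the SKI proteins that works with sine oculis homeobox and EYA proteins in the development of eye, limb and kidney, and it is studied as a growth regulator in tumour cells.

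Library totals ranged from 14695420 to 20198041 counts. In WT, PN and PCN, Trp53 RNA stood at 118 to 121, 2.27 to 3.24 and 2.53 to 3.96 CPM (counts scaled to a common library total), and Notch1 RNA at 213 to 277, 140.5 to 153.9 and 66.5 to 76.9 CPM. Cdkn2a RNA was highest in the libraries labelled as its knockout, at 62.4 to 70.2 CPM against 6.49 to 10.3 in WT. It was also above WT in PN, at 21.5 to 22.7 CPM. PCN below therefore means the libraries labelled PCN. Of 14 markers of esophageal epithelium 13 had values. In PN against WT 2 of 9 fitted markers rose and 7 fell, and in PCN against WT 4 of 11 rose and 6 fell. Of all genes fitted, 48.5% were higher in PN against WT and 48.1% in PCN against WT. Summed over the 11 with counts in all libraries, the markers stood at 35756 to 38000 CPM in WT. The PN and PCN libraries stood at 12095 to 12474 and 14375 to 14910 CPM. In WT most of this sum was Krt13 and Krt4, and Krt5, which has no WT value, is not in it. The differentiation keratins Krt13 and Krt4 were among those that fell. Krt13 stood at 15876 ± 645, 2099 ± 80 and 2791 ± 77 CPM in WT, PN and PCN (mean ± SD, n = 3 libraries, as throughout). Krt4 stood at 11383 ± 410, 2501 ± 75 and 2206 ± 47 CPM. The basal keratin Krt14 stood at 1959 ± 278, 1965 ± 81 and 2433 ± 84 CPM, a rise in PCN against WT. The 2 markers that rose in PN also rose in PCN. They were the basal keratin Krt15 (300 ± 32, 731 ± 16 and 1644 ± 38 CPM) and Trp63 (486 ± 23, 698 ± 36 and 649 ± 40 CPM). The part of these markers in the levels of Bhlhe22 and Dach1 was not tested. Of 12 markers of glia, endothelium and leukocytes 2 had values, Esam and Cd68, and both fell in both edited groups. None of 11 markers of fibroblasts and smooth muscle was in the tables, which hold changed genes and say nothing of a gene they leave out. Among the libraries of its group, WT replicate 3 lay farthest from the group mean, with a median absolute deviation of 0.112 on the log2(CPM + 1) scale against 0.0472 to 0.0888 in the other libraries.

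Bhlhe22 (ENSMUSG00000025128) lies on the plus strand of chromosome 3, at 18054174 to 18057517 in GRCm38, and has 1 annotated transcript with 1 exon in GENCODE M21. Dach1 (ENSMUSG00000055639) lies on the minus strand of chromosome 14, at 97786853 to 98169765. It spans 382.9 kb, and its annotated coding transcripts have 11 and 12 exons. A small nuclear RNA gene, Gm25831, and a pseudogene on the other strand, Gm16331, lie within Dach1, and the labels do not say whether reads were counted by strand. The promoter of Dach1, 300 bases around its start site (RefSeq, GRCm38.p6, chr14:98169716-98170015, minus strand), is shown because no promoter was matched for Bhlhe22. By symbol, 1 of the 2 genes was matched in the promoter table, and Bhlhe22 was not.
Dach1: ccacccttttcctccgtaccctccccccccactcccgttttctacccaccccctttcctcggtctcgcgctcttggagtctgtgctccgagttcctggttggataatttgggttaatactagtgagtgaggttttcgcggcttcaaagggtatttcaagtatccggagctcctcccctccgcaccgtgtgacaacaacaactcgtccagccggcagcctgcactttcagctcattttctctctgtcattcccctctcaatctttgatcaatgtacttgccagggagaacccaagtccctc
The window was searched on both strands for the E-box letters CANNTG, for TGGGAA, the core read by the Notch pathway factor RBPJ, and for the p53 half-site. It held none of them, so no base is in capitals. Of 32851 promoter windows of this length, 72.3% held the E-box letters, 25.6% the RBPJ core and 8.36% a p53 half-site. An absent match says only that these letters are not in this window.

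Bhlhe22 RNA was low in WT, lower in PN and highest in PCN. The WT libraries held 9.28, 7.49 and 5.04 CPM, the PN libraries 1.36, 1.00 and 1.27, and the PCN libraries 45.2, 50.2 and 53.4, in the order of replicates 1, 2 and 3. No library of one group reached the level of another group, and the lowest PCN library was 4.86 times the highest WT library. Groups without overlap were common, found in 50 of the 54 genes listed as lower in PN and higher in PCN than WT. The means of WT, PN and PCN were 7.27 ± 2.1, 1.21 ± 0.19 and 49.6 ± 4.2 CPM. The log2 fold change was -2.56 ± 0.28 (SE) in PN against WT, which is 5.92-fold lower. In PCN it was 2.77 ± 0.17 against WT, which is 6.84-fold higher, and 5.34 ± 0.13 against PN, which is 40.6-fold higher. The PN levels rest on 23, 17 and 24 counts, and the library with 17 counts has an exact 95% interval of 0.583 to 1.60 CPM (Clopper-Pearson, counting error only). In bulk RNA, fewer cells that express a gene and less RNA per cell cannot be told apart.

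Dach1 had the same order of groups, with a smaller step between WT and PN. The WT libraries held 5.34, 5.17 and 8.08 CPM, the PN libraries 3.50, 3.89 and 2.86, and the PCN libraries 59.1, 69.5 and 58.9. The groups did not overlap, as in 50 of the 54 genes listed with these directions. The lowest WT library was 1.33 times the highest PN library, while the lowest PCN library was 7.29 times the highest WT library. The means, in the same order, were 6.20 ± 1.6, 3.41 ± 0.52 and 62.5 ± 6.0 CPM. The log2 fold change was -0.85 ± 0.23 in PN against WT, which is 1.81-fold lower, 3.33 ± 0.15 in PCN against WT, which is 10.1-fold higher, and 4.20 ± 0.11 in PCN against PN, which is 18.3-fold higher. The 95% intervals of WT replicate 2 (4.07 to 6.47 CPM) and PN replicate 2 (3.01 to 4.95 CPM) overlap, so at this depth counting error alone does not separate these neighbouring libraries.

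**Figure D1:**
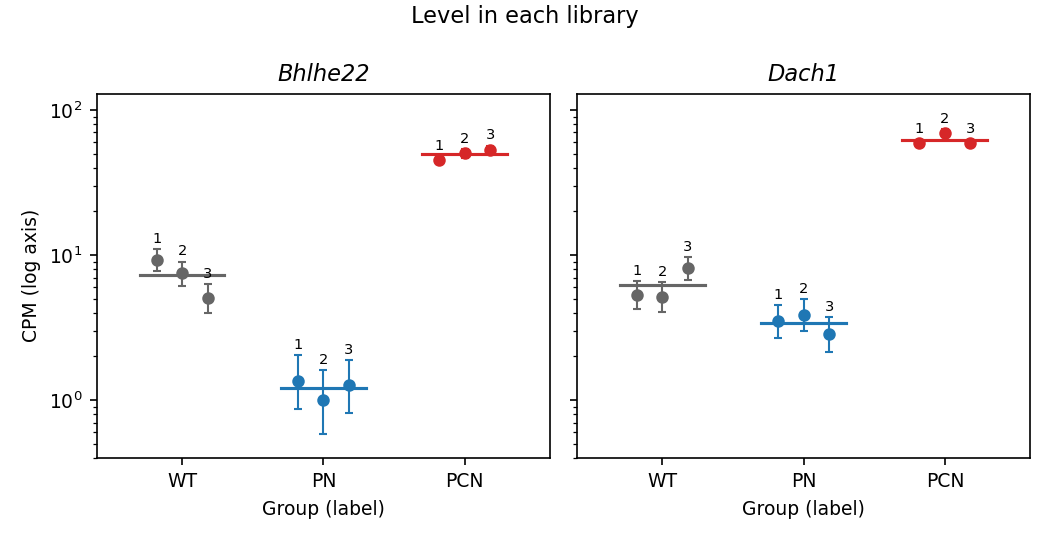
Level of Bhlhe22 (left) and Dach1 (right) in each of the 9 libraries, in CPM on a log axis, by labelled group. Points are libraries with their replicate number, bars are exact 95% intervals for counting error, and lines are group means. For Bhlhe22 the PN libraries sit at 1.00 to 1.36 CPM and the PCN libraries at 45.2 to 53.4, and for Dach1 the PN libraries lie close below WT and the PCN libraries at 58.9 to 69.5.

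WT replicate 3 had the lowest Bhlhe22 level and the highest Dach1 level of its group. Without this library the log2 fold change of Dach1 in PN against WT was -0.62, and that of Bhlhe22 was -2.77. The spread between libraries, as a share of the mean, was 29.3% for Bhlhe22 and 26.3% for Dach1 in WT, against 8.41% and 9.65% in PCN.

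Per length, the order of both genes depended on the group. In FPKM, which divides by gene length, Bhlhe22 was above Dach1 in all 3 WT libraries (means 2.17 ± 0.64 and 0.847 ± 0.22) and in all 3 PCN libraries (13.5 to 16.0 against 8.05 to 9.49). In PN Dach1 was above Bhlhe22 in all 3 libraries, at 0.390 to 0.531 against 0.299 to 0.408 FPKM. The ratio of Dach1 to Bhlhe22 in FPKM was 0.263 to 0.734 for the WT libraries, 1.03 to 1.77 for PN and 0.504 to 0.633 for PCN. The authors' length for Dach1, 7317 bases, is longer than its longest transcript in GENCODE M21, 5219 bases, so the ratio moves with the length used. With the transcript length, chosen after seeing the data, the ratio was 0.369 to 1.03 for the WT libraries, where Dach1 was then above Bhlhe22 in 1 of 3, 1.44 to 2.49 for PN and 0.706 to 0.887 for PCN.

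The authors' deposited tables list both genes in all 3 comparisons, as they list 38.1% of genes tested in PN against WT (18.2% higher, 19.9% lower), 38.6% in PCN against WT (18.4% higher, 20.2% lower) and 24.5% in PCN against PN (12.6% higher, 11.8% lower). Since these comparisons chose the genes, nothing is read from their being listed. The value nearest to the limit of 0.05 is that of Dach1 in PN against WT, with an adjusted p of 0.011 in the authors' deposited table. Among genes higher in PCN than in PN after the filter on low counts, Bhlhe22 ranked 8 and Dach1 16 of 1823 by fold change. By the authors' values, before this filter, they ranked 13 and 30. After the filter they ranked 118 and 83 of 3081 genes higher in PCN than in WT, and 382 and 1545 of 3244 genes lower in PN. Opposite directions against WT chose both genes, so being higher in PCN than in PN follows from the choice. Of 5049 genes listed against WT in both edited groups, 112 (2.22%) had opposite directions, 54 of them lower in PN and higher in PCN. Both comparisons share the WT libraries.

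Ranked by the smaller of the 2 absolute fold changes, Bhlhe22 came first and Dach1 eighth among the 53 genes of its pattern with fitted values. The genes ranked between 2 and 6 were C3, Fgfr3, Klk13, Fam149a and Sirpa. Fgfr3, a fibroblast growth factor receptor, had WT libraries at 86.0, 81.7 and 91.8 CPM, PN libraries at 43.1, 44.2 and 41.3, and PCN libraries at 222, 202.5 and 211. C3, the central complement component, stood at 7.11 ± 0.81, 3.16 ± 0.60 and 40.2 ± 2.9 CPM in WT, PN and PCN. Sirpa, an inhibitory receptor for CD47, stood at 5.32 ± 0.38, 2.86 ± 0.95 and 27.1 ± 1.6 CPM. Their order of groups, shared with Bhlhe22 and Dach1, is fixed by the pattern they were taken from.

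In the reverse pattern, higher in PN and lower in PCN, the first ranks were held by Arnt2, Hoxc8, Krt23, Dclk1, Rtn2 and Tinagl1. In WT, PN and PCN, Arnt2, a bHLH factor with a PAS domain, stood at 0.851 ± 0.21, 2.81 ± 0.29 and 0.106 ± 0.048 CPM. Hoxc8, a homeobox factor of body axis patterning, stood at 27.0 ± 1.6, 67.3 ± 1.4 and 2.85 ± 0.17 CPM. Of the 112 genes, 13 (11.6%) carried a transcription factor label in the tables, beside 5.72% of the 5049 genes listed in both. Bhlhe22 carries this label and Dach1 does not. One of the 112, Cd163, a scavenger receptor known from macrophages, was removed by the filter on low counts and has no fitted value. It had 24 counts over the WT libraries, 2 over PN and 134 over PCN, and is named after its values were seen. Cd68, the macrophage marker with values, stood at 107 ± 13, 25.2 ± 1.6 and 16.1 ± 0.97 CPM in WT, PN and PCN (-2.73 ± 0.10 in PCN against WT, adjusted p = 1.5e-10).

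**Figure D2:**
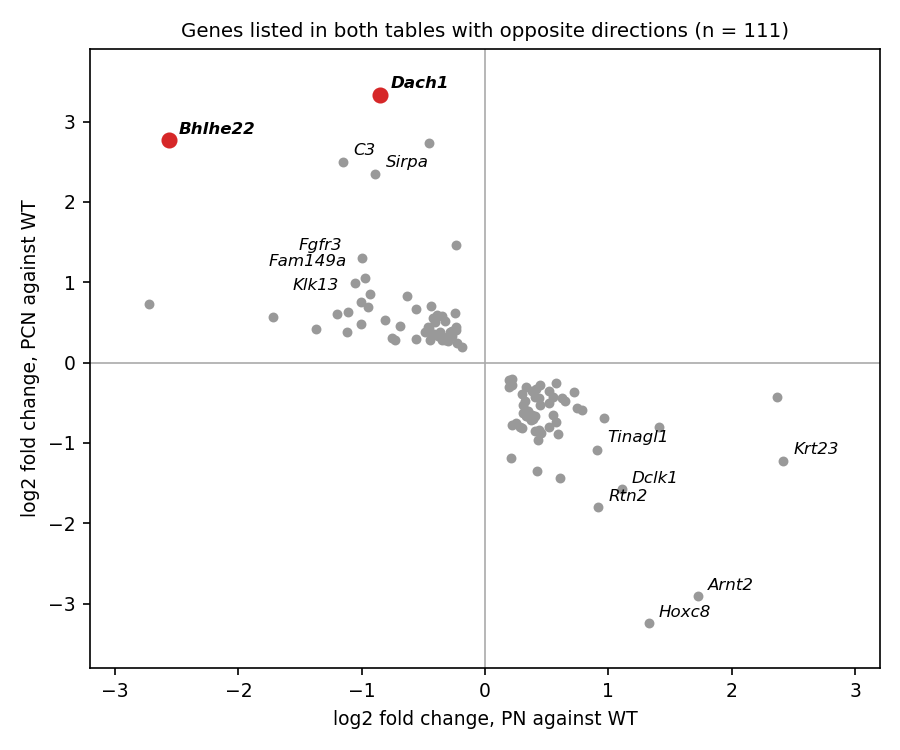
Log2 fold change in PN against WT (x axis) and in PCN against WT (y axis) for the 111 genes listed in both tables with opposite directions and fitted in both; each point is a gene, and both axes share the WT libraries. Bhlhe22 (-2.56 and 2.77) and Dach1 (-0.85 and 3.33) are in red, and the leading genes of each pattern are named.

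The partners of Dach1 were measured next. Of 16 genes (the paralogue Dach2, sine oculis homeobox and EYA partners, SKI relatives and corepressors), 7 had values. Eya2, a phosphatase and coactivator of the sine oculis homeobox proteins, had WT libraries at 130.2, 139.6 and 134 CPM, PN libraries at 79.7, 77.5 and 81.1, and PCN libraries at 153, 176 and 169. Its groups did not overlap and followed the order PN, WT, PCN, as for Dach1 and for 50 of the 54 genes listed with these directions. It fell in PN (log2 fold change -0.75 ± 0.07, adjusted p = 1.6e-06, edgeR's quasi-likelihood test, adjusted by Benjamini-Hochberg, as below), rose in PCN against WT (0.30 ± 0.08, adjusted p = 0.0055) and was higher in PCN than in PN (1.06 ± 0.06, adjusted p = 2.7e-15). Six4, a homeobox partner of EYA proteins, stood at 13.0 ± 2.3, 3.04 ± 0.43 and 2.75 ± 0.33 CPM in WT, PN and PCN, a fall in both edited groups (-2.08 ± 0.19 and -2.23 ± 0.19, adjusted p = 1.8e-06 and 5.7e-07).

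Skil, a SKI family repressor, stood at 28.2 ± 3.3, 18.8 ± 0.91 and 24.1 ± 2.0 CPM in WT, PN and PCN, a fall in PN (-0.57 ± 0.11, adjusted p = 0.0012) and a higher level in PCN than in PN (0.35 ± 0.09, adjusted p = 0.0039). Its relative Ski and the corepressors Ncor1 and Sin3a rose in both edited groups by 0.20 to 0.49 on the log2 scale. For Ncor1 in PN (0.20 ± 0.06, adjusted p = 0.023) the call was lost without PN replicate 2 (0.091), PN replicate 3 (0.13) or WT replicate 1 (0.055). In all, 3 of the 6 fitted genes rose and 3 fell in PN, and 4 rose and 1 fell in PCN against WT. In PCN against PN both fitted genes rose. Over all genes the test called 36.4% in PN against WT (17.6% higher, 18.8% lower), 36.5% in PCN against WT (17.5% higher, 19.0% lower) and 23.8% in PCN against PN (12.3% higher, 11.5% lower). The median log2 fold changes of the fitted list genes were -0.18, 0.30 and 0.71, beside -0.26, -0.28 and 0.16 over all genes fitted. The paralogue Dach2 had no values in the tables.

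Few relatives of Bhlhe22 had values. Of 29 tissue-restricted bHLH genes, 4 had values, and none of the OLIG, NEUROG or NEUROD genes did. Twist2, a mesenchymal bHLH factor, fell from 6.53 ± 1.5 CPM in WT to 2.57 ± 0.30 in PN (-1.33 ± 0.23, adjusted p = 4.6e-04) and was higher in PCN (4.27 ± 0.48 CPM) than in PN (0.73 ± 0.21, adjusted p = 0.0075). That second call was lost without PCN replicate 1 (adjusted p = 0.059). Its relative Twist1 had 142 counts over WT, none over PN and 1 over PCN. Ascl2 stood at 3.00 ± 0.22 CPM in PN and 5.49 ± 0.68 in PCN (0.87 ± 0.19, adjusted p = 6.3e-04), and Hand2 had no counts in WT and 15 in PCN. The corepressor partner Prdm8 and the target Cdh11, both known from neurons, had no values.

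Of 9 E proteins, Id genes and Bhlhe40 relatives, 8 had values. In PN against WT 4 rose and 2 fell, in PCN against WT 6 rose and 2 fell, and in PCN against PN 6 rose and none fell, with a median log2 fold change of 0.54 against 0.16 over all genes fitted. Of all genes fitted, 48.5%, 48.1% and 51.4% were higher in these comparisons. Id proteins bind E proteins and keep them from pairing with tissue-restricted bHLH factors. Id1 had WT libraries at 35.1, 35.4 and 36.4 CPM, PN libraries at 41.3, 34.7 and 43.5, and PCN libraries at 134, 139 and 175. Its PCN libraries lay above all others (2.07 ± 0.10 against WT, adjusted p = 2.1e-09, and 1.90 ± 0.13 against PN, adjusted p = 2.6e-05), while WT and PN overlapped and PN was not listed. Id3 rose in both edited groups, its WT libraries lying at 4.36 to 5.50 CPM, its PN libraries at 26.3 to 32.0 and its PCN libraries at 90.7 to 132 (2.54 ± 0.14 and 4.44 ± 0.16 against WT, adjusted p = 1.2e-08 and 7.6e-10).

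Id4 also rose in both, from 8.37 ± 0.88 to 15.1 ± 1.4 and 20.7 ± 2.2 CPM. Id2, the most abundant of the 4 Id genes in WT, fell in both edited groups, from 107 ± 10 to 55.7 ± 2.7 and 65.7 ± 4.9 CPM (-0.93 ± 0.09 and -0.70 ± 0.09, adjusted p = 1.8e-06 and 2.6e-05). Its higher level in PCN than in PN (0.24 ± 0.06, adjusted p = 0.0054) was not called without PN replicate 2 (0.054) or in 1 fit of all libraries (0.060). The E protein Tcf4 rose in PCN from 34.9 ± 2.1 to 54.8 ± 3.7 CPM (0.65 ± 0.09, adjusted p = 4.3e-05), and Tcf3 and Tcf12 rose in both edited groups by 0.29 to 0.49 on the log2 scale. The call of Tcf12 in PN (adjusted p = 0.011) was lost without PN replicate 3 (0.0503) or WT replicate 2 (0.055). Bhlhe40, a repressor tied to the circadian clock and hypoxia, fell from 452 ± 27 CPM to 170 ± 13 and 239 ± 29 in the PN and PCN groups (-1.40 ± 0.08 and -0.92 ± 0.09, adjusted p = 1.4e-08 and 2.5e-06). The deposited family label bHLH includes Bhlhe22 and genes of the list above. By this label 10 genes rose and 14 fell in PN against WT, and 13 rose and 13 fell in PCN against WT. Of all genes fitted, 48.5% and 48.1% were higher there. In PCN against PN 17 rose and 6 fell, beside 1823 of 3546 fitted genes (51.4%) that were higher. There Bhlhe22 had the highest log2 fold change of the 23, at 5.34, Id1 the next, at 1.90, and Arnt2 the lowest, at -4.63.

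**Figure D3:**
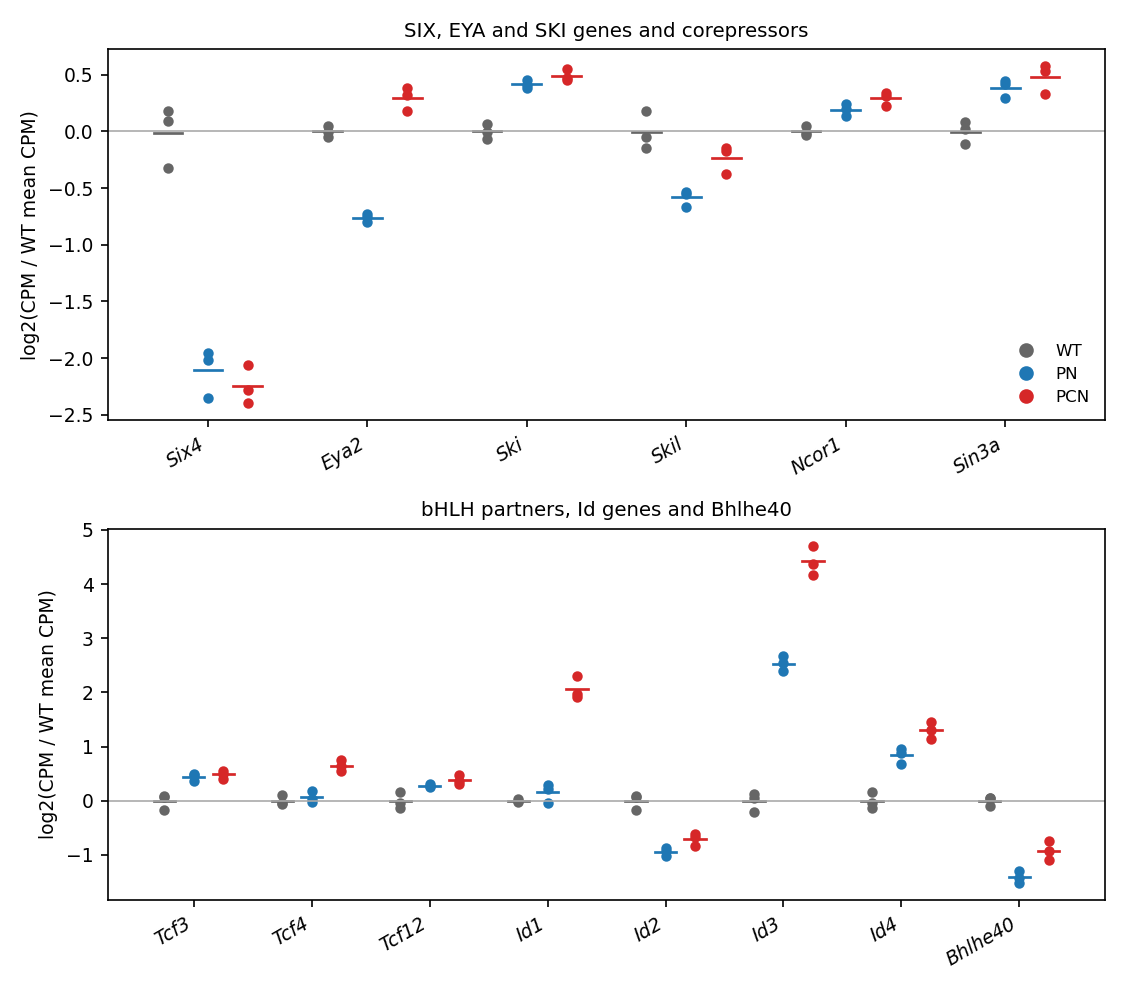
Log2 of CPM over the WT mean in each library for Six4, Eya2, SKI family genes and corepressors (top) and for bHLH partners, Id genes and Bhlhe40 (bottom); points are libraries and short lines are means of the 3 libraries of a labelled group. Eya2 lies below WT in PN and above WT in PCN, Six4 lies low in both, and Id1 and Id3 are highest in PCN.

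Genes reported as targets or partners of DACH1 in tumour cells were read next. Of 12 genes 7 had values, with 4 falls and no rise in PN against WT, 3 falls and no rise in PCN against WT, and 2 rises and 3 falls in PCN against PN. Of all genes fitted, nearly all of them called, 48.5%, 48.1% and 51.4% were higher in these comparisons, and nothing is read from counts this small. Sox2, a factor of foregut and basal cells, was listed in PCN against WT but did not pass the test (-0.42, adjusted p = 0.12), and it passed without WT replicate 3 (adjusted p = 5.2e-11) and with DESeq2 (adjusted p = 0.019). Jun, an AP-1 subunit, had WT libraries at 61.5, 61.4 and 55.8 CPM, PN libraries at 16.1, 16.7 and 14.4, and PCN libraries at 54.8, 58.4 and 53.3. It fell in PN (-1.91 ± 0.10, adjusted p = 5.6e-09) and was higher in PCN than in PN (1.82 ± 0.08, adjusted p = 4.8e-17), with PCN overlapping WT. Cyclin D1, Ccnd1, went from 466 ± 16 CPM in WT and 429 ± 8.3 in PN to 343 ± 15 in PCN (-0.44 ± 0.07 against WT, adjusted p = 2.4e-04). Klf4, a factor of epithelial differentiation, fell in both edited groups, from 187 ± 28 to 91.9 ± 3.2 and 80.9 ± 4.1 CPM (-1.02 ± 0.10 and -1.21 ± 0.10, adjusted p = 3.6e-06 and 9.6e-07).

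Because Bhlhe22 is known from neurons, markers of neurons and neuroendocrine cells were read beside it. Of 14 markers 4 had values. The 3 with counts in all libraries were Map2, Tubb3 and Snap25, and their link to Bhlhe22 was not tested. Their summed level in WT, PN and PCN libraries was 29.6 to 34.8, 47.5 to 52.3 and 32.4 to 35.2 CPM. Most of this sum was Map2, a neuronal microtubule protein also found elsewhere, at 28.1 ± 3.3, 43.2 ± 2.2 and 30.7 ± 0.96 CPM. Snap25, a synaptic vesicle fusion protein, stood at 0.316 ± 0.32, 1.36 ± 0.20 and 1.33 ± 0.28 CPM, a rise against WT in both edited groups (2.11 ± 0.54 and 2.06 ± 0.55, adjusted p = 0.0068 and 0.0079). Tubb3, a neuronal tubulin, was lower in PCN (2.03 ± 0.38 CPM) than in PN (5.36 ± 0.13; -1.40 ± 0.21, adjusted p = 3.2e-06). Gap43, a growth cone protein, had no counts in WT, which allows up to 0.0670 CPM, and 16 counts over PCN.

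Of the neighbours of Bhlhe22 on chromosome 3, the nearest shared its high level in PCN but not its low level in PN. Cyp7b1, an oxysterol hydroxylase, lies on the opposite strand at 18071950 to 18243338, 14.4 kb beyond the end of Bhlhe22, so that the genes are transcribed toward each other. Its WT libraries held 6.35, 6.53 and 6.69 CPM, its PN libraries 6.82, 7.83 and 8.67, and its PCN libraries 44.5, 49.9 and 45.2. The PCN libraries lay far above both other groups (2.84 ± 0.11 against WT, adjusted p = 2.2e-10, and 2.57 ± 0.10 against PN, adjusted p = 1.2e-18). Unlike Bhlhe22 it was not lower in PN than in WT, and PN against WT was not listed. The other 9 neighbours lie 3153 to 7703 kb before or 2065 to 9040 kb after the gene.

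Counting all 10 neighbours, 3 rose and 4 fell in PN, 2 rose and 6 fell in PCN against WT, and 5 rose and 1 fell in PCN against PN, the fall being that of the carbonic anhydrase gene Car2 (24.9 ± 1.9 CPM in PN and 12.2 ± 0.74 in PCN; -1.02 ± 0.10, adjusted p = 1.6e-09). Of all called genes of chromosome 3, 61.8%, 63.6% and 52.6% were lower in these comparisons. Only genes with values count as neighbours, so each was listed by the authors in some comparison. Besides Cyp7b1 the 1 other rise in PCN against WT was that of Ect2, an exchange factor of cytokinesis, by 0.55 ± 0.08 (adjusted p = 9.5e-05).

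Dach1 lies far from its neighbours, the nearest with values being 865 kb away. All 10 neighbours were higher in PCN than in PN, as were 322 of the 327 called genes of chromosome 14. The median log2 fold change was 0.55 for the neighbours and 0.61 for the called genes of the chromosome, against 4.20 for Dach1. In PN against WT 6 of the 10 fell and 1 rose, and in PCN against WT 2 rose and 1 fell, where 93.8% and 51.4% of the called genes of the chromosome were lower. Klf5, a Krüppel-like factor of basal epithelium, went from 356 ± 29 CPM in WT to 214.5 ± 0.68 in PN (-0.72 ± 0.07, adjusted p = 4.5e-06) and stood at 327 ± 14 in PCN, where it was not listed against WT. Mzt1, a spindle pole component, showed the same, at 75.5 ± 13, 46.8 ± 3.3 and 70.0 ± 2.2 CPM.

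Dis3, a catalytic subunit of the RNA exosome, and Bora, an activator of mitotic kinases, were the 2 neighbours that rose in PCN against WT. Dis3 rose from 38.0 ± 2.5 to 72.8 ± 3.9 CPM (0.94 ± 0.09, adjusted p = 8.0e-07) and Bora from 17.9 ± 3.2 to 35.3 ± 1.7 (0.98 ± 0.13, adjusted p = 2.3e-05). The step of Dach1 in PCN against WT, 3.33, was larger than theirs.

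On chromosome 14 as a whole, 93.8% of 276 called genes were lower in PN than in WT (49.7% on the other chromosomes), with a median of -0.68. In PCN against WT 101 were higher and 107 lower (51.4% lower, 52.1% on the other chromosomes), with a median of -0.24. In PCN against PN 322 of 327 were higher, so 1.53% were lower (53.2% on the other chromosomes), with a median of 0.61. The value of Dach1 in PN against WT, -0.85 ± 0.23, lies less than 1 SE from the chromosome's median, and its value in PCN against PN, 4.20, is far above it. The part of the chromosome in the level of Dach1 was not tested. Chromosome 14 held 16.1% of the genes with opposite directions and 2.69% of the genes listed against WT in both groups. Chromosome 12, which holds neither gene, held 30.4% and 3.76%.

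**Figure D4:**
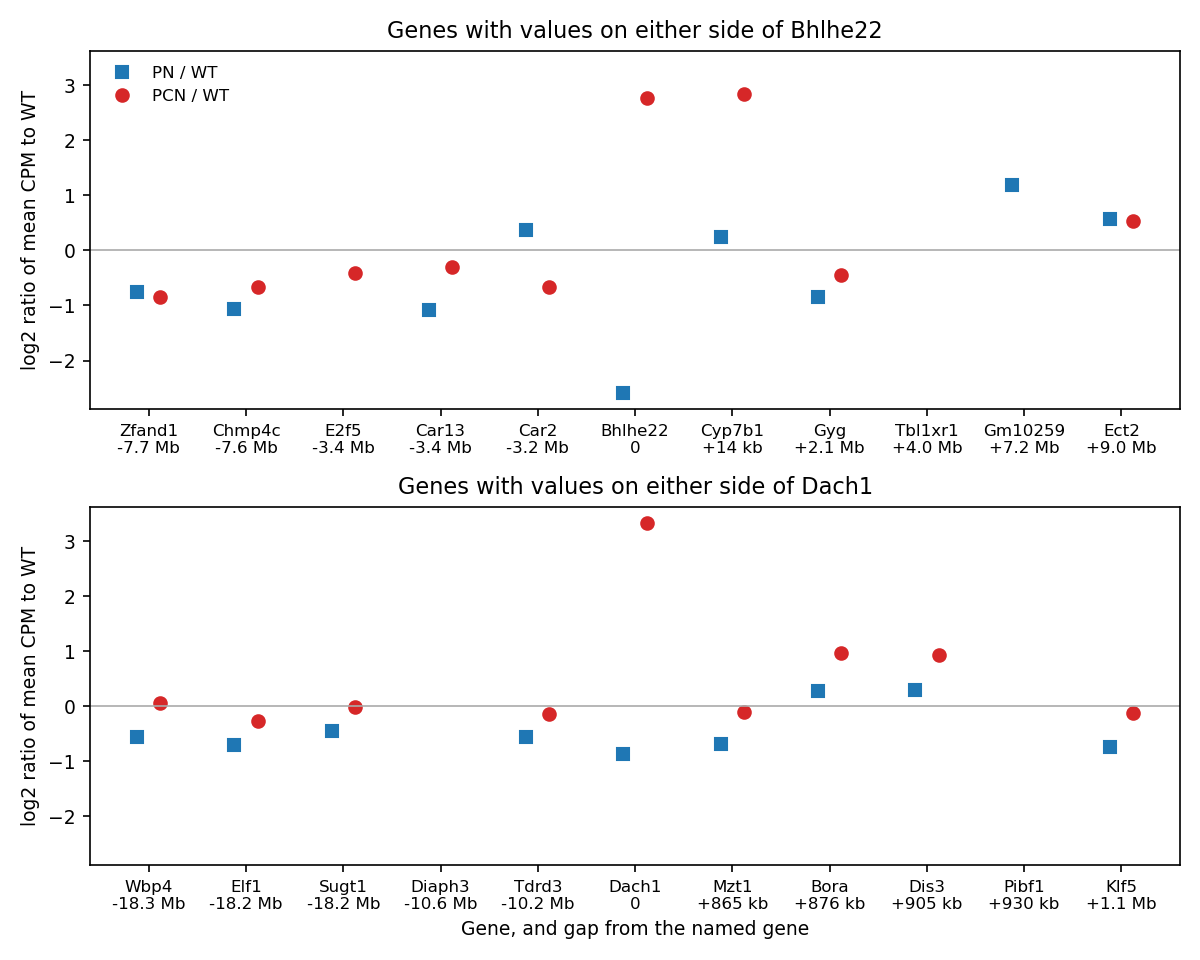
Log2 ratio of the group mean CPM to the WT mean for the 5 nearest genes with values on each side of Bhlhe22 (top) and Dach1 (bottom), ordered by position, with the gap to the named gene under each name; blue squares are PN and red circles PCN, and a missing point has no value in the tables. The ratio to WT of Cyp7b1, next to Bhlhe22, is like that of Bhlhe22 in PCN and not in PN. No neighbour of Dach1 comes near its ratio to WT in PCN, although some, such as Klf5, have a higher CPM there.

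Genes most like each of the 2 were ranked by Pearson's r of log2(CPM + 1) over the 9 libraries among 6277 other genes. The libraries form 3 separate groups, so r describes mainly the order and spacing of group means, and it is given as a description. For Bhlhe22 the highest were Tmem176a (r = 0.996), Oaf (0.989), Fgfr3 (0.988), Tm9sf1 (0.988) and Ipo4 (0.988). Tmem176a, a membrane protein, stood at 76.0 ± 4.0, 57.4 ± 1.0 and 114 ± 0.63 CPM in WT, PN and PCN, a much narrower range than that of Bhlhe22. The lowest were Trib2 (-0.994), G2e3 (-0.991) and Dclk1 (-0.991).

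For Dach1 the highest were Glul (0.993), Rnf145 (0.991), Bhlhb9 (0.991), Ifitm3 (0.989) and Sfrp1 (0.989). Glul, glutamine synthetase, had WT libraries at 15.9, 14.6 and 14.8 CPM, PN libraries at 11.2, 10.9 and 10.8, and PCN libraries at 100.3, 101 and 98.5. Its PN libraries lay below all WT libraries and its PCN libraries far above both. Sfrp1, a secreted Wnt inhibitor, stood at 42.5 ± 1.6, 38.8 ± 2.0 and 141 ± 5.7 CPM. The lowest were Sfmbt2 (-0.997), Susd1 (-0.997) and Gpx2 (-0.993). Sfmbt2, a Polycomb group protein, had 117 counts over WT, 210 over PN and 1 over PCN.

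Dach1 itself ranked 53 among the genes most like Bhlhe22, and Bhlhe22 ranked 91 among those most like Dach1 (r = 0.948 over the 9 libraries).

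**Figure D5:**
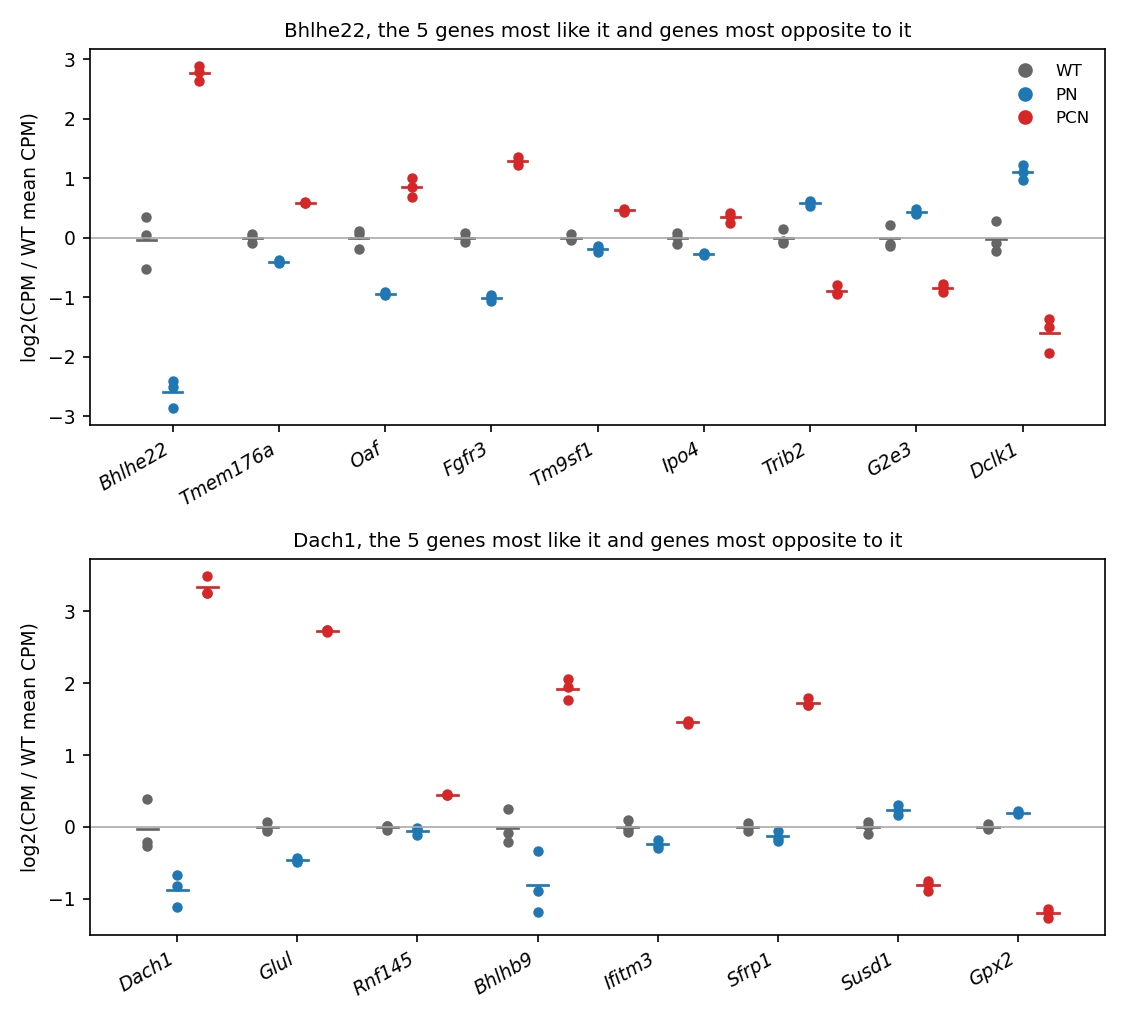
Log2 of CPM over the WT mean in each library for Bhlhe22 (top) and Dach1 (bottom), each followed by the 5 genes with the highest r and by genes with the lowest r; points are libraries and short lines are means of the 3 libraries of a labelled group. Sfmbt2 is left out because 2 of its PCN libraries have no counts.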

How the data were processed

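RNA of 9 organoid libraries was measured. CASAVA, DESeq and the build GRCm38 (mm10) are named in the submitters' processing notes, which state no aligner or read counter. The 3 deposited tables each hold the genes of 1 comparison whose adjusted p the authors found to be below 0.05. Raw counts are as deposited. The deposited signal is a normalized count, scaled in each pair by a size factor for each library. FPKM, by gene length and library total, is as deposited. The log2 fold changes and p-values beside them were computed by the authors. Library totals and size factors were recovered from these columns, as was the number of genes adjusted over (17165, 17300 and 14758).

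R 4.3.3 and edgeR 4.0.16 were used to fit each pair (robust quasi-likelihood test, filterByExpr, standard errors from its F statistic) with the deposited size factors and Benjamini-Hochberg adjustment over the recovered number, at 0.05, after a check on simulated counts. The tables hold genes already called on these libraries, so a refit adds no independent evidence.  The labels do not say that libraries came from separate cultures, so p-values measure the spread between libraries. Same-numbered PN and WT libraries deviated together (correlations 0.19, 0.10 and 0.21, each over the limit of 0.1), although no label says that a number marks a shared batch. PCN libraries did not. The replicate block changed no call of a named gene in PN against WT.

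The genes, lists and rules were chosen with earlier results of these data known. Named genes were the 2 genes, list genes with values, 5 neighbours per side, the 6 leading genes of each opposite pattern, and the 5 highest and 3 lowest r (mean of at least 1 CPM). Alternatives were other scalings, DESeq2 1.42.0, no filter, 1 fit of all libraries, leaving out each library, a replicate block and a log2(CPM + 1) scale. The values of 1 list gene are not reported here.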

Additional observations from a re-analysis of the deposited data

How the results depend on the processing

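The directions of Bhlhe22 and Dach1 held in each comparison under every alternative run. Without 1 library, the log2 fold change of Bhlhe22 ranged from -2.77 to -2.35 in PN against WT, 2.56 to 2.99 in PCN against WT and 5.23 to 5.43 in PCN against PN, and that of Dach1 from -0.97 to -0.62, 3.22 to 3.57 and 4.07 to 4.30. On the log2(CPM + 1) scale, whose added 1 shrinks changes of low levels, Bhlhe22 moved to -1.87 in PN against WT and 4.52 in PCN against PN, and Dach1 to 3.85 in PCN against PN. With the replicate number as a block, the values were -2.53, 2.79 and 5.35 for Bhlhe22 and -0.84, 3.34 and 4.20 for Dach1. The block gave 6277, 6075 and 3345 called genes in place of 6248, 6316 and 3507. Same-numbered libraries of PCN and the other groups had correlations of -0.28 to -0.08, so the shared number pairs nothing there. Without 1 library the counts of called genes were 5578 to 6231, 5647 to 6341 and 3217 to 3384. Of 2487 alternative values of the named other genes, 2401 kept direction and call, 80 lost the call, 6 gained it and none reversed. Low counts limit Bhlhe22 and Dach1 in PN most, with 64 and 179 counts over 3 libraries.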
